A study of Mus musculus with 8 samples.

Results

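The 9 genes described here encode splicing regulators of the CELF, MBNL and RBFOX families, namely Celf1, Celf2, Celf4, Celf5, Celf6, Mbnl1, Mbnl2, Mbnl3 and Rbfox2, out of 55487 genes counted in cultured LLC cells, a mouse Lewis lung carcinoma line. They were chosen from gene families with the wild-type against ΔAgo2 values of these same libraries already known, and Celf2 was then already among the genes with the smallest p. Their own differences between the genotypes are therefore given as descriptions, with no test. Of the 9 genes, 8 were among the 14228 genes that passed edgeR's filter on low counts, and Celf6 was not. Celf2 was the single member whose level separated the genotypes in every library, with a mean of 0.886 ± 0.363 CPM (counts scaled to library size, SD, n = 4) for the wild-type and of 6.67 ± 0.975 CPM for ΔAgo2 cells.

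RNA-seq was made from 4 libraries of wild-type LLC cells and 4 libraries of LLC cells with an Ago2 knock-out (ΔAgo2), all labelled as biological replicates of batch 1. Both kinds of cells were grown in the same DMEM-based medium with serum and antibiotics and were not otherwise treated. According to the methods, the knock-out was made with a lentiviral CRISPR-Cas9 guide against Ago2, puromycin selection and sorting of single cells into clones, so that ΔAgo2 cells differ from the wild-type line by the vector and by cloning as well as by Ago2. Which clone gave the libraries, and whether the replicates are separate cultures, is not given in the sources used here, so that every spread and p below covers these libraries and may be technical.

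CELF proteins (CUGBP Elav-like family) bind GU-rich stretches of RNA, where they steer alternative splicing in the nucleus and mRNA decay and translation in the cytoplasm. MBNL proteins (muscleblind-like) are zinc finger proteins that act on many of the same exons, often in the opposite direction to CELF proteins, and their loss to expanded CUG repeats underlies the splicing defects of myotonic dystrophy. RBFOX proteins bind the element UGCAUG beside regulated exons, and Rbfox2 is the family member known from epithelial and mesenchymal cells. AGO2, the protein removed here, holds a microRNA (miRNA) that pairs through its seed with sites in the 3′UTR of target mRNAs. The counts used here are summed over each gene and do not resolve exons, so that the splicing these proteins control was not measured.

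The libraries held 39628101 to 68530912 counts each. Wild-type replicate 4 stood apart, correlating with its own group at a median Spearman rho of 0.864, where replicates 1 to 3 reached 0.948 to 0.961 and the ΔAgo2 libraries 0.985 to 0.986. The mitochondrial share of its counts was 0.540%, compared with 2.39% to 4.51% elsewhere. Its deviation from the others followed GC content across genes (Spearman rho 0.722, over genes, which are not independent replicates), so values are given with and without it. Ago2 itself had a log2 fold change of 0.21, so that its transcript does not tell the genotypes apart, and the genotype names used here are those of the labels. The paper examined Ago2 protein in wild-type and ΔAgo2 LLC cells by Western blot, and protein was not measured in these libraries. Of 7 genes listed for these carcinoma cells, the keratin genes Krt8 and Krt18 and the vimentin gene Vim had at least 2570 counts in every library. Krt19 had 10 to 139 counts and Cdh2 had 259 to 1704 counts a library. Epcam reached at most 1 count and Cdh1 at most 9 counts in any library.

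Celf2 (ENSMUSG00000002107.18) is a gene of 969.9 kb on the minus strand of chromosome 2 of GRCm38 (mm10), from 6539694 to 7509563, with 28 annotated transcripts, and encodes a CELF protein best known from heart, brain and lymphocytes. Its counts were 69, 53, 56 and 18 in the wild-type libraries, in order of replicate, and between 249 and 440 in the ΔAgo2 libraries. After scaling by TMM factors, the wild-type libraries stood at 1.403, 0.751, 0.832 and 0.559 CPM and the ΔAgo2 libraries at 7.16, 5.92, 7.79 and 5.79 CPM. The 2 groups were thus fully separated, with the ΔAgo2 libraries on the higher side. The mean CPM was 7.52-fold higher in ΔAgo2 cells, or 6.70-fold higher when wild-type replicate 4 was left out. The fitted log2 fold change was 2.90 with a standard error (SE) of 0.40, and 2.76 without wild-type replicate 4. In bulk RNA, more cells with the transcript and more transcript per cell cannot be told apart.

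The Celf2 transcript was rare in both genotypes. Per transcript length, it stood at 0.17, 0.11, 0.11 and 0.05 TPM (a level per gene length, scaled to the library) in wild-type replicates 1 to 4, and at 1.04, 0.83, 1.02 and 0.79 TPM in ΔAgo2 replicates 1 to 4. Its mean TPM was at the 0.703 percentile of the 14228 tested genes in wild-type cells and at the 11.9 percentile in ΔAgo2 cells. The gene was thus among the lowest tested genes of wild-type cells and still in the low range of ΔAgo2 cells. Several defining markers of neurons, muscle and immune cells, some of which are known to express CELF genes, were at or near 0 in all 8 libraries, with no count for Dcx, Gad1, Myod1, Myog, Myf5 and Cd3e, at most 1 count for Stmn2 and at most 2 counts for Ptprc. Other markers in the same lists were detected, with 20 to 876 counts a library for Nefm, 7 to 485 for Snap25, 38 to 483 for Map2, 19 to 118 for Des, 25 to 163 for Lyz2 and 241 to 2338 for Cd68. Des had a log2 fold change of -1.68 (unadjusted p = 0.0114, adjusted p = 0.446, edgeR's quasi-likelihood test). The summed level of 11 neuronal markers ran from 11.8 to 19.0 TPM in wild-type and from 11.1 to 19.7 TPM in ΔAgo2 libraries. None of the 7 neuronal markers that were tested passed an adjusted p of 0.05, and 2 had an unadjusted p under 0.05, Tubb3 with a log2 fold change of -1.31 and Syt1 with 1.53 (edgeR's quasi-likelihood test, Benjamini-Hochberg adjusted p = 0.524 and 0.503). The sum of 10 muscle markers ran from 0.82 to 4.11 TPM and from 0.51 to 1.33 TPM in the same order, that of 8 immune markers, mostly Cd68, from 18.3 to 101 TPM and from 15.2 to 46.1 TPM, and that of 4 endothelial markers from 0.03 to 0.31 TPM and from 0.17 to 0.75 TPM. Their part in the Celf2 values was not tested.

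**Figure D1:**
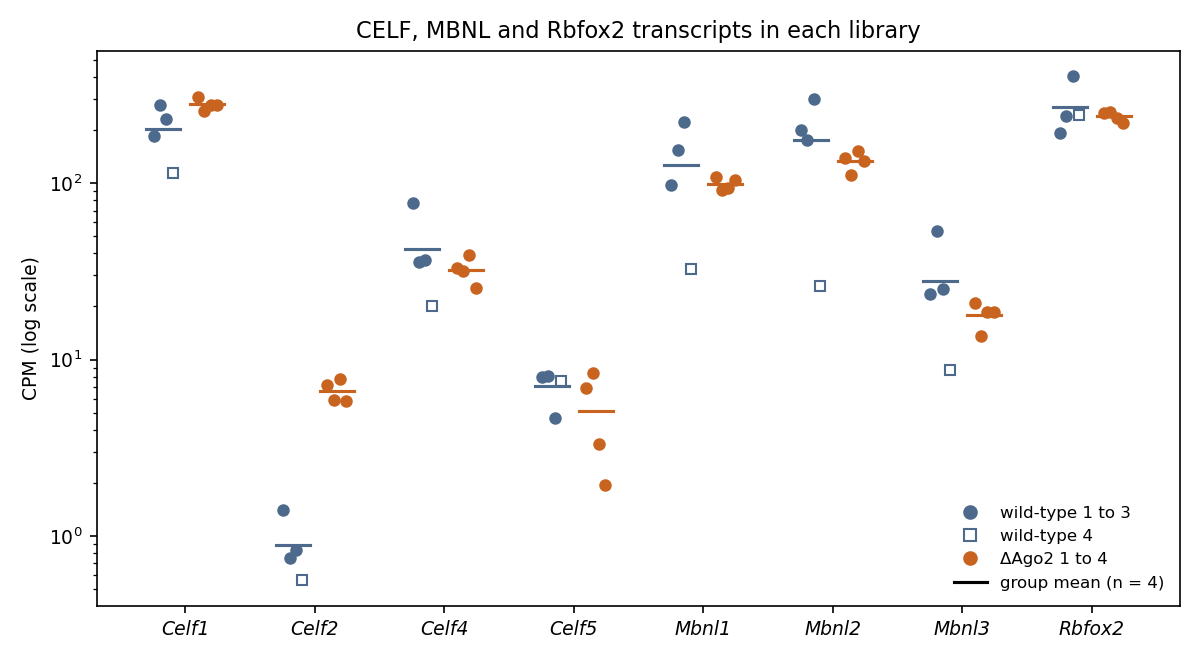
CPM of the 8 genes that passed the filter on low counts, on a log axis, for each wild-type (blue) and ΔAgo2 (orange) library, with the group mean as a line (n = 4) and wild-type replicate 4 as an open square. Celf2 is the one gene whose groups do not overlap, and wild-type replicate 4 is the lowest wild-type library of Celf1, Celf2, Celf4 and all 3 Mbnl genes.

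Because AGO2 acts through miRNA pairing, the 3′UTR of Celf2 was searched for seed matches, and the sites of the miRNAs with more than 1 match are shown here. The longest annotated 3′UTR of Celf2 (transcript ENSMUST00000170438.7) has 7381 bases and is longer than 99.0% of the 12062 3′UTRs of tested genes, whose median is 1187 bases. It holds 13 matches to the seeds of 8 among 14 common miRNAs, a list set after the counts were seen. This is 1.76 matches per kb, against 1.60 over all tested 3′UTRs, so that Celf2 stood out by the length of its 3′UTR more than by the density of matches. The mature sequences, from RefSeq with the GRCm38.p6 assembly, are given with the seed (bases 2 to 8) in capitals, as follows.
mmu-miR-34a-5p: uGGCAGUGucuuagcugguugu
mmu-miR-30a-5p: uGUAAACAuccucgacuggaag
mmu-miR-125b-5p: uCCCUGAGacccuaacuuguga
mmu-miR-181a-5p: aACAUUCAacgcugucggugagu

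The matches to these 4 miRNAs in the Celf2 3′UTR are written along the mRNA, from the GENCODE M21 transcript, with the bases that pair with the seed in capitals. All lie on the minus strand of chromosome 2 of GRCm38.
miR-34a site 1, chr2:6546666-6546694: tgccccgagagCACTGCCtggagaactca
miR-34a site 2, chr2:6543329-6543357: ccactgtttacCACTGCCggggccttcct
miR-34a site 3, chr2:6541003-6541031: aagaactgcccCACTGCCcatgctgtgac
miR-30a site 1, chr2:6543336-6543364: tgttagcccacTGTTTACcactgccgggg
miR-30a site 2, chr2:6541143-6541171: tccttgctgtcTGTTTACaaaggggagct
miR-125b site 1, chr2:6541369-6541397: agaggcacaccCTCAGGGagaggtaaaat
miR-125b site 2, chr2:6540667-6540695: gtgctggctttCTCAGGGcggggcctgct
miR-181a site 1, chr2:6543458-6543486: taatgtgtgtgTGAATGTgatagccctga
miR-181a site 2, chr2:6539818-6539846: tgtgtgcaaagTGAATGTgattctttctc
The second miR-34a site starts on the base after the first miR-30a site ends, at bases 3740 and 3733 of the 3′UTR. Among all tested 3′UTRs, 17.5% hold the miR-34a match, 16.4% the miR-30a match, 15.7% the miR-125b match and 18.5% the miR-181a match. Neither miRNA levels nor AGO2 binding were measured here, and a match is a stretch of letters, not a shown target.

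The other members held fewer matches to the same 14 seeds in their longest 3′UTRs. Celf1 (6132 bases) and Rbfox2 (5172 bases) held 6 each, Mbnl3 (3738 bases) held 5, Celf5 held 4, Mbnl2 and Celf4 held 3 each, Mbnl1 held 2 and Celf6 held 1. Per kb, these 8 genes had 0.589 to 1.41 matches, below the value over all tested 3′UTRs. Only Celf2 and Celf5 held the miR-34a match, 3 and 2 times. The Celf2 3′UTR also held the GU-rich element TGTTTGT, a preferred CELF sequence, 4 times and the RBFOX element TGCATG 2 times on the mRNA strand, elements found in 29.7% and 35.9% of all tested 3′UTRs.

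Celf1 (ENSMUSG00000005506.16), on the plus strand of chromosome 2 from 90940382 to 91019497, is the broadly expressed founding member of the family and a factor in both splicing and decay of GU-rich mRNAs. Reads on Celf1 numbered 9071, 19706, 15510 and 3680 in the wild-type libraries and 18933, 10785, 11388 and 14668 in the ΔAgo2 libraries. Its level was 184.5, 279, 230.5 and 114 CPM in wild-type and 308.2, 256, 279 and 277.5 CPM in ΔAgo2 libraries. Wild-type replicate 2 lay within the ΔAgo2 range and the other 3 wild-type libraries lay below it, so that the groups overlapped. The mean was 202 ± 70.2 and 280.3 ± 21.4 CPM (SD, n = 4), a 1.39-fold difference that became 1.21-fold without wild-type replicate 4. Its log2 fold change was 0.47 (SE 0.30), and 0.28 without that library, within the spread of the wild-type libraries.

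Celf4 (ENSMUSG00000024268.16), known mainly from neurons, was counted 3776, 2507, 2456 and 650 times in wild-type and 2027, 1331, 1597 and 1342 times in ΔAgo2 replicates. In CPM, the wild-type libraries stood at 76.8, 35.5, 36.5 and 20.2, and the ΔAgo2 libraries at 33.0, 31.6, 39.1 and 25.4. Wild-type replicate 1 was high and replicate 4 low, and the ΔAgo2 libraries lay between them. The log2 fold change was -0.39 (SE 0.39). It became -0.60 without wild-type replicate 4 and 0.07 without wild-type replicate 1, so that its sign rested on 1 library.

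Celf5 (ENSMUSG00000034818.16), another CELF gene of the nervous system, had 393, 570, 312 and 242 counts in wild-type and 422, 352, 135 and 103 counts in ΔAgo2 replicates. Its CPM was 7.99, 8.08, 4.64 and 7.51 in wild-type and 6.87, 8.36, 3.31 and 1.95 in ΔAgo2 libraries. This was the one member that varied more among ΔAgo2 libraries, by 4.29-fold from lowest to highest, than among wild-type libraries, by 1.74-fold. Of the ΔAgo2 libraries, 1 was above the wild-type range, 1 inside it and 2 below it. For Celf5, the log2 fold change was -0.46 (SE 0.47), and -0.42 without wild-type replicate 4. It ranged from -0.80 without ΔAgo2 replicate 2 to -0.19 without ΔAgo2 replicate 4.

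Celf6 was barely detected, with 0, 5, 1 and 4 counts in the wild-type libraries and 0, 1, 0 and 0 counts in the ΔAgo2 libraries. These are 10 and 1 counts in all, too few for a fold, since 3 counts in a library are allowed by a count of 0. The remaining CELF gene, Celf3, had 2 counts in wild-type replicate 2, 1 count in ΔAgo2 replicate 2 and none elsewhere. The neuronal RBFOX genes were no more detectable, with 1 and 2 counts of Rbfox1 in ΔAgo2 replicates 2 and 4 and no count of Rbfox3 in any library.

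The 3 MBNL genes shared a pattern, with wild-type replicate 4 lowest and the ΔAgo2 libraries close together. Mbnl1 (ENSMUSG00000027763.13), on chromosome 3 from 60472830 to 60629750, is the main MBNL gene of adult muscle. It had 4805, 10934, 15038 and 1051 counts in wild-type and 6634, 3867, 3841 and 5521 counts in ΔAgo2 replicates. Scaled, these were 97.7, 155, 223 and 32.6 CPM in wild-type and 108, 91.9, 94.1 and 104 CPM in ΔAgo2 libraries. All 4 ΔAgo2 libraries lay inside the wild-type range. Its log2 fold change was -0.35 (SE 0.47), and -0.67 without wild-type replicate 4.

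Mbnl2 (ENSMUSG00000022139.17), on chromosome 14 from 120275669 to 120431697, is the paralog known from the brain and the most abundant MBNL transcript here. It was counted 9844, 12397, 20220 and 837 times in wild-type and 8583, 4672, 6229 and 7039 times in ΔAgo2 replicates. The levels were 200.2, 176, 300.4 and 26.0 CPM in wild-type and 139.7, 111, 153 and 133 CPM in ΔAgo2 libraries. Wild-type replicates 1 to 3 were above every ΔAgo2 library and wild-type replicate 4 was below every one of them. Wild-type libraries differed by 11.6-fold from lowest to highest, against 1.38-fold among ΔAgo2 libraries. The log2 fold change was -0.39 (SE 0.55), and -0.74 without wild-type replicate 4, when the mean wild-type level was 1.68-fold that of ΔAgo2 cells.

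Mbnl3 (ENSMUSG00000036109.17), on the minus strand of the X chromosome from 51117269 to 51206532, is the paralog linked to undifferentiated muscle precursors. Its counts were 1156, 3801, 1701 and 281 in wild-type and 1288, 572, 761 and 985 in ΔAgo2 replicates. In CPM it stood at 23.5, 53.9, 25.3 and 8.72 in wild-type and at 20.97, 13.6, 18.7 and 18.6 in ΔAgo2 libraries. As for Mbnl2, replicates 1 to 3 of the wild-type were above and replicate 4 below all ΔAgo2 libraries in CPM. The log2 fold change was -0.63 (SE 0.46), and -0.93 without wild-type replicate 4, when the wild-type mean was 1.90-fold that of ΔAgo2 cells. Its level rested on wild-type replicate 2 as well, since without that library the log2 fold change was -0.11.

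Rbfox2 (ENSMUSG00000033565.18), encoded on chromosome 15 (minus strand, 77078990 to 77307004), binds UGCAUG and regulates exons in epithelial and mesenchymal cells. It had 9486, 17016, 27302 and 7848 counts in wild-type and 15420, 10702, 9561 and 11665 counts in ΔAgo2 replicates, or 193, 241, 406 and 244 CPM against 251, 254, 234 and 221 CPM. Apart from the high value of wild-type replicate 3, the genotypes were at one level. The log2 fold change was -0.17 (SE 0.28), -0.22 without wild-type replicate 4 and 0.09 without wild-type replicate 3. Wild-type replicate 4 lay at -0.20 on the log2 scale from the mean of the other 3 wild-type libraries for Rbfox2, a small distance beside that of the MBNL genes.

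The displacement of wild-type replicate 4 was largest for the MBNL genes. Against the mean CPM of wild-type replicates 1 to 3, it was at -3.12 on the log2 scale for Mbnl2, -2.28 for Mbnl1 and -1.97 for Mbnl3, which lie at the 5.85, 13.2 and 16.9 percentiles of all tested genes. It was at -1.30 for Celf4, -1.02 for Celf1, -0.83 for Celf2 and 0.12 for Celf5. The GC content of the longest transcript was 39.7% for Mbnl1, 39.8% for Mbnl3, 42.1% for Celf2, 46.6% for Celf1, 49.3% for Celf4 and Mbnl2, 51.5% for Rbfox2 and 55.3% for Celf5. The part of GC content in these values was not tested gene by gene, and correcting each library for its dependence on GC left a log2 fold change of -0.52 for Mbnl1, -0.41 for Mbnl2, -0.86 for Mbnl3 and 2.59 for Celf2.

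Of the 8 tested members, 1 passed an adjusted p of 0.05 in edgeR's quasi-likelihood test, where 0.295% of the 14228 tested genes passed (11 higher and 31 lower in ΔAgo2 cells). The same gene, Celf2, was the 1 member whose CPM did not overlap between groups, as for 6.07% of all tested genes. Since the members were chosen on this contrast, neither count is evidence about them. Without wild-type replicate 4, 3 members did not overlap in CPM, Celf2 above and Mbnl2 and Mbnl3 below, against 12.1% of tested genes. In TPM, Mbnl3 did overlap, with 8.3 in wild-type replicate 1 and 9.05 in ΔAgo2 replicate 1. This count is no evidence about the members either, for the same reason. The median log2 fold change was -0.37 over the 8 members and -0.11 over all tested genes, and 2 members and 41.2% of all genes were above 0.

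Compared per length, the members spanned a wide range of levels and kept nearly the same order in both genotypes. In ΔAgo2 cells, Celf1 stood at 119 ± 12.8 TPM (SD, n = 4) and Rbfox2 at 106 ± 10.7 TPM, and these 2 ranges overlapped. Mbnl2 followed at 40.0 ± 4.71 TPM, Mbnl1 at 19.1 ± 2.12 TPM, Celf4 at 13.4 ± 2.16 TPM and Mbnl3 at 7.36 ± 1.398 TPM, with no overlap between neighbours in this order. Celf5 was at 2.79 ± 1.70 TPM, and its lowest library, at 1.03 TPM, met the highest Celf2 library, at 1.04 TPM. In wild-type cells, Rbfox2 led with 106.5 ± 48.0 TPM, followed by Celf1 with 80.1 ± 41.9, Mbnl2 with 49.9 ± 33.6, Mbnl1 with 23.3 ± 16.5, Celf4 with 15.9 ± 9.19, Mbnl3 with 11.1 ± 9.27, Celf5 with 3.33 ± 1.11 and Celf2 with 0.11 ± 0.049 TPM. Each of the first 6 overlapped its neighbours in that order, whereas Celf5 and Celf2 did not overlap. Celf1, Rbfox2 and Mbnl2 ranked high among tested genes in both genotypes, from the 75.9 to the 89.2 percentile in wild-type and from the 69.8 to the 90.0 percentile in ΔAgo2 cells.

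Within the CELF family, Celf1 gave most of the transcript. It made up 79.5% ± 8.06 (SD, n = 4) of the summed CELF TPM in wild-type and 87.4% ± 2.22 in ΔAgo2 libraries. Celf4 made up 16.4% ± 7.76 and 9.92% ± 1.61, and Celf5 3.91% ± 1.91 and 2.03% ± 1.23, in the same order. Celf2 went from 0.119% ± 0.0427 to 0.677% ± 0.0746, so that it stayed under 1% of CELF transcripts also where it was high. Within the MBNL family, Mbnl2 made up 56.3% ± 10.9 and 60.2% ± 2.55, Mbnl1 28.8% ± 5.89 and 28.8% ± 2.51, and Mbnl3 14.9% ± 6.91 in wild-type and 9.88% to 12.1% in ΔAgo2 libraries. Rbfox2 made up 100.0% of the RBFOX TPM in every library after rounding.

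The sum of MBNL TPM was 75.9, 114, 136.5 and 10.9 in wild-type replicates 1 to 4 and 74.8, 57.1, 67.3 and 66.5 in ΔAgo2 replicates 1 to 4. The sum of CELF TPM was 98.9, 150.5, 110.5 and 37.9 in wild-type and 157, 129, 130 and 128 in ΔAgo2 libraries. The ratio of MBNL to CELF transcript was thus 0.768, 0.756, 1.24 and 0.288 in wild-type and 0.476, 0.443, 0.518 and 0.518 in ΔAgo2 libraries. The ratio was steady among ΔAgo2 libraries, at 0.489 ± 0.0364, and scattered among wild-type libraries, at 0.763 ± 0.389. Wild-type replicates 1 to 3 were above all ΔAgo2 libraries, at 0.921 ± 0.276, and wild-type replicate 4 was below them all, so that the groups overlapped with that library and did not without it. The wild-type mean was the higher one either way.

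**Figure D2:**
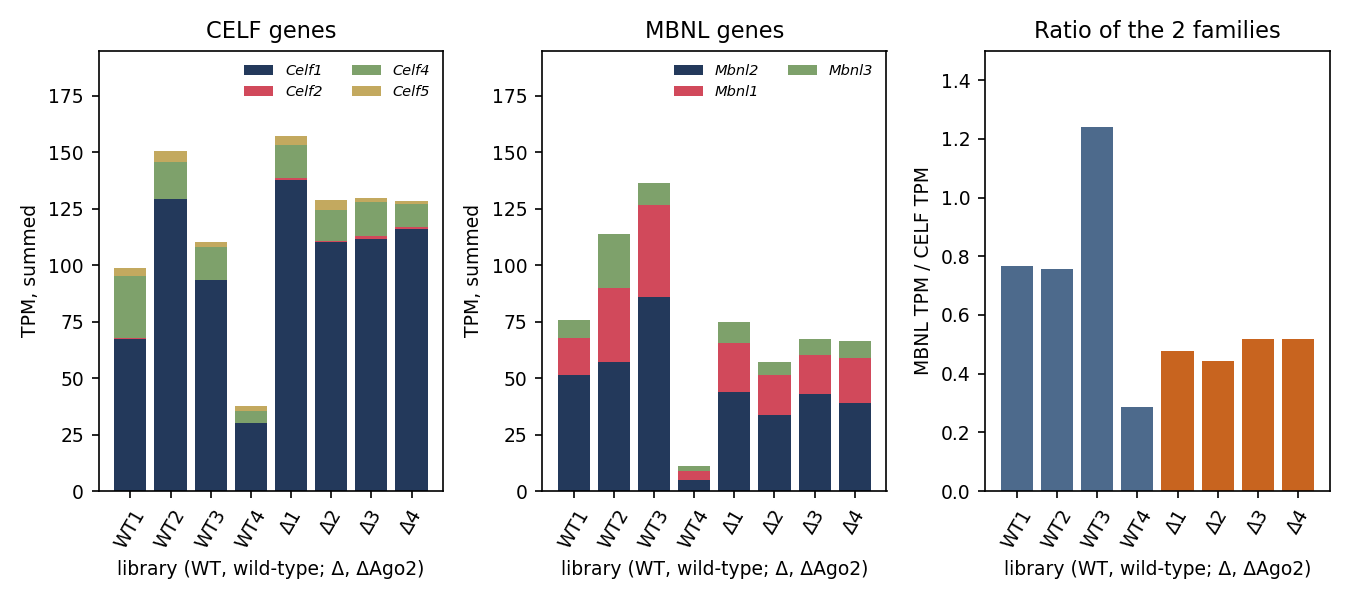
Summed TPM of the CELF genes (left) and the MBNL genes (middle) stacked by gene, and the ratio of the MBNL to the CELF sum (right, blue for wild-type and orange for ΔAgo2), for each of the 8 libraries. The ratio runs from 0.443 to 0.518 in ΔAgo2 libraries and from 0.288 to 1.24 in wild-type libraries, and Celf3 and Celf6, which are too low to be seen, are not drawn.

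Across the 8 libraries, Mbnl1 and Mbnl2 had the most similar levels among the members, with a Pearson r of 0.943 on log2 CPM, followed by Mbnl1 and Mbnl3 with 0.788 and Mbnl2 and Mbnl3 with 0.741. Celf1 had an r of 0.705 with Mbnl1. Celf2 had its highest r among the members with Celf1, at 0.662, and an r of 0.056 with Mbnl1. These are descriptions over 8 libraries of 2 groups, in which wild-type replicate 4 was the lowest for all 3 MBNL genes. The genes whose levels were most like that of Celf2 among all tested genes were C78283, a long noncoding RNA gene (r = 0.987), Plscr2, a phospholipid scramblase gene (r = 0.986), and Rnf152, a ubiquitin ligase gene (r = 0.984). They were picked for their likeness to Celf2 over the same 8 libraries, which Celf2 separates by genotype, so their log2 fold changes of 2.28, 3.83 and 3.92 are a description, with no test. Plscr2 had 58 to 187 counts in wild-type and 1185 to 1716 counts in ΔAgo2 libraries. They lie on chromosomes 5, 9 and 1, away from Celf2.

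**Figure D3:**
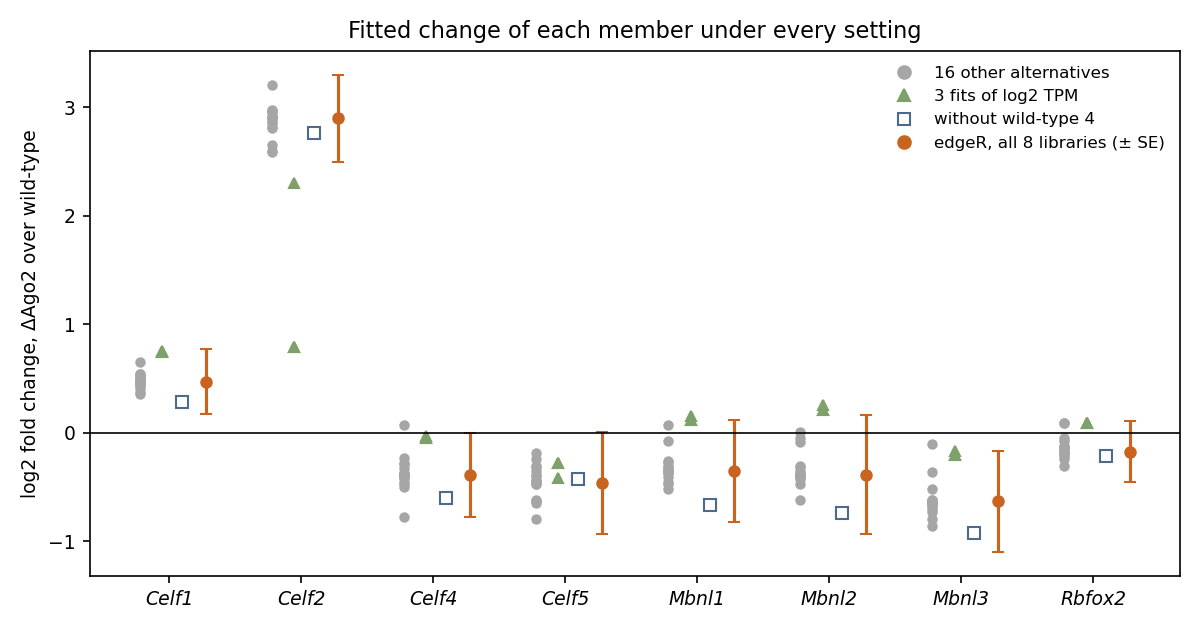
Log2 fold change of ΔAgo2 over wild-type for the 8 tested members under edgeR with all libraries (orange, ± SE), without wild-type replicate 4 (open squares), on log2 TPM (triangles) and under 16 other alternatives (grey). Celf2 stays above 0 throughout, from 0.789 to 3.21, whereas Celf4, Mbnl1, Mbnl2 and Rbfox2 have values on both sides of 0.

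Over 20 other ways of fitting the genotype, Celf1, Celf2, Celf5 and Mbnl3 kept their sign 20 times. Celf4 did so 19 times, Mbnl1 and Mbnl2 16 times and Rbfox2 15 times. For Mbnl1 and Mbnl2 the sign turned on log2 TPM, with 0.11 to 0.16 and 0.21 to 0.25, and without wild-type replicate 3, with 0.07 and 0.003. The median of all tested genes itself moved from -0.11 on counts to 0.15 on log2(TPM + 1) and 0.22 on log2(TPM + 0.1). Set against that median, Mbnl1 on log2(TPM + 1) lay below it and Mbnl2 above it. The log2 fold change of Celf2 was 0.79 on log2(TPM + 1), a scale on which a gene near 0.1 TPM can move little.

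Beside these families, 129 other genes of splicing control were examined in 6 lists, of which 105 passed the filter on low counts. With edgeR, 0 of the 105 reached an adjusted p under 0.05, where 0.295% of the 14228 tested genes did. An unadjusted p under 0.05 was reached by 0 of the 105 and by 1045 of the 14228. With limma-voom and sample weights, 1 of the 105 was called, Srpk2, where 257 of the 14228 tested genes were. That fit gave an unadjusted p under 0.05 to 11 of the 105 and to 2368 of the 14228. DESeq2 called none of the 105, and 2 others of the 124 list genes it was given, where it called 399 of 27620 genes. With edgeR, the median log2 fold change of the 105 was 0.02, against -0.11 over all tested genes, and their smallest adjusted p was 0.691. Other tissue regulators of splicing, such as Ptbp1, Qki and Khdrbs1, had a median of -0.004 over 18 tested genes. The epithelial regulator Esrp2 was low, at 0.382 ± 0.240 CPM for the wild-type and 0.166 ± 0.0443 CPM for ΔAgo2, with a log2 fold change of -1.17 (SE 0.64), and its groups overlapped. The neuronal regulators Nova2 and Srrm4 had log2 fold changes of -0.61 (SE 0.37) and 0.40 (SE 0.46).

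The SR proteins, which promote exon inclusion, had a median log2 fold change of 0.12 over 14 tested genes, with the largest absolute values for Srsf3 (0.44, SE 0.36), Tra2b (0.34, SE 0.34) and Srrm2 (-0.28, SE 0.39). The hnRNP proteins, many of which act against them, had a median of 0.17 over 25 tested genes, from -0.69 (SE 0.45) for Pcbp4 and -0.55 (SE 0.42) for Pcbp3 to 0.51 (SE 0.32) for Hnrnpd. Pcbp2 was the 1 gene of the 105 whose groups did not overlap, against 6.07% of all tested genes. Without wild-type replicate 4, Pcbp4 and Pcbp3 stood at 0.03 each.

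Among the kinases that phosphorylate SR proteins, the median was -0.18 over 8 tested genes. Srpk2 averaged 165 ± 90.7 CPM for the wild-type and 87.7 ± 9.23 CPM for ΔAgo2, with 10991, 13917, 14155 and 976 counts in wild-type and 5236, 3248, 4056 and 4700 counts in ΔAgo2 replicates. Like Mbnl2, it was lower in ΔAgo2 cells than in wild-type replicates 1 to 3 and higher than in replicate 4. Its log2 fold change was -0.92 (SE 0.50, adjusted p = 0.729 with edgeR) with all libraries and -1.25 (adjusted p = 0.0140 with edgeR) without wild-type replicate 4. Clk3 and Clk4 had log2 fold changes of -0.49 (SE 0.28) and -0.33 (SE 0.48).

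The core spliceosome genes had a median of -0.29 over 24 tested genes, led by Sf3b5 (-1.02, SE 0.48), Snrpc (-0.77, SE 0.41) and Sf3a2 (-0.69, SE 0.55). This median became 0.08 without wild-type replicate 4, where the 3 genes stood at -0.19, -0.13 and 0.31. The transcripts known to be spliced under CELF, MBNL or RBFOX control had a median of -0.06 over 16 tested genes, which is a measure of their amount and not of their exons. Lef1 (-0.98, SE 0.96), Ldb3 (-0.86, SE 0.53) and Capzb (-0.50, SE 0.37) had the largest absolute values, and Capzb stood at 0.004 without wild-type replicate 4. DESeq2 called Msi1, a neural RNA-binding protein gene, and App, a neuronal splicing target, which edgeR's filter on low counts had removed. Msi1 had 118, 4, 127 and 20 counts in wild-type and 0, 2, 1 and 2 counts in ΔAgo2 replicates, and App had 36, 3, 180 and 5 counts in wild-type and 1, 0, 0 and 0 counts in ΔAgo2 replicates. Both genes were named after their values were seen.

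**Figure D4:**
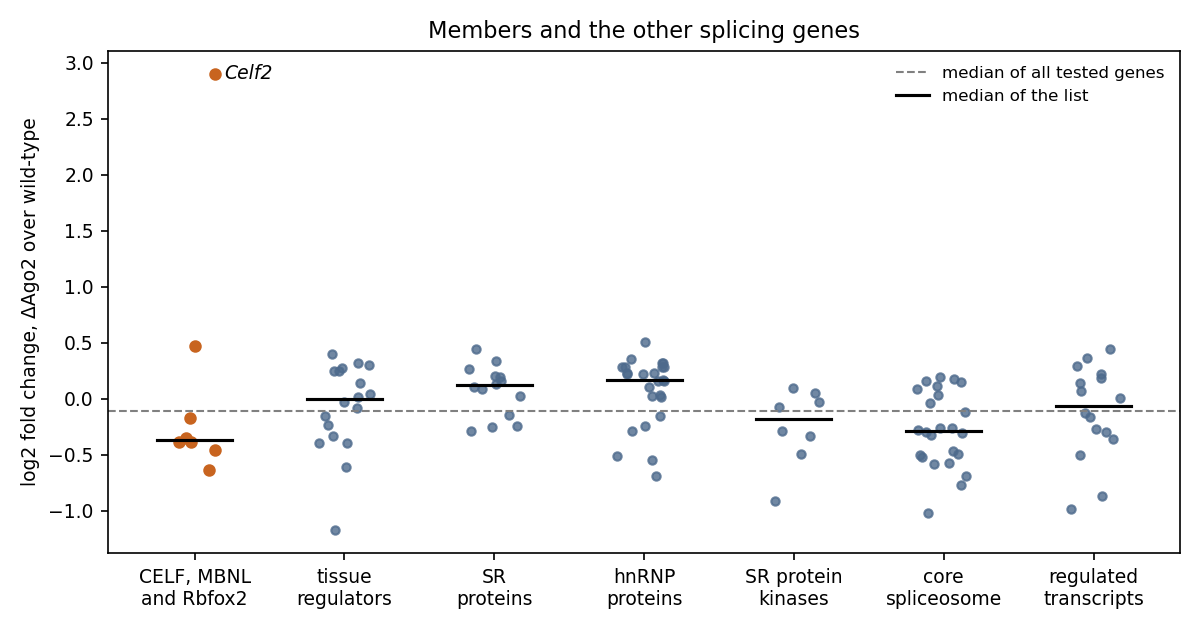
Log2 fold change of ΔAgo2 over wild-type, 1 point per tested gene, for the 8 members (orange) and the 6 lists of other splicing genes (blue), with list medians as black lines and the median of all 14228 tested genes dashed. Celf2, chosen with this contrast known, is at 2.90, and the 105 list genes run from -1.17 to 0.51.

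The genes next to the members were examined to see whether a stretch of chromosome moved with them. Of 18 nearest tested protein-coding genes, 1 on each side of each member, 1 passed an adjusted p of 0.05, against 0.295% of all tested genes. Next to Celf2 lie Usp6nl, at a distance of 93.3 kb, and Gata3, at 2348 kb, and their log2 fold changes were 0.31 (SE 0.34, adjusted p = 0.832) and 0.18 (SE 0.59, adjusted p = 0.948) in edgeR's quasi-likelihood test. Usp6nl, a GTPase regulator gene, had 1292 to 8480 counts in wild-type and 4421 to 7152 in ΔAgo2 libraries, with overlapping CPM. The 1 neighbour that passed was Gpc4, a heparan sulfate proteoglycan gene 846.5 kb from Mbnl3 on the X chromosome, from 52053021 to 52165252. Its counts were 66, 95, 151 and 40 in the wild-type libraries, with no count in any ΔAgo2 library, at least 24.7-fold lower in ΔAgo2 cells against a floor of 3 counts per library (adjusted p = 0.0120, edgeR's quasi-likelihood test). The other neighbour of Mbnl3, Rap2c, had a log2 fold change of 0.12 (SE 0.49), and did not pass (adjusted p = 0.963, edgeR's quasi-likelihood test).

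Few reads were counted on other annotated genes inside the members. The 18 annotated genes that overlap a member had at most 49 counts in any library, and the 7 inside Celf2 had none. CELF and MBNL paralogs share protein domains and some coding sequence, and how reads that fit more than 1 gene were counted is not stated, and an exchange of reads between paralogs was not tested. Among the tested members, Celf2 had the fewest counts, with 18 in its lowest library. The RefSeq table holds 5 start windows for Celf2, from chr2:6721613-6721912 to chr2:7396149-7396448 and with a GC content of 46.3% to 80.3%, and counts summed over the gene do not tell which start was used.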

How the data were processed

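Total RNA of 4 wild-type and 4 ΔAgo2 libraries of LLC cells was sequenced from a stranded mRNA kit as 100 bp read pairs. The authors aligned them first to a ribosomal RNA database and then to mm10 (STAR, per the labels), with featureCounts for the counting. They deposited unnormalized counts for 55487 genes and, for the same libraries, TPM values, which are scaled to gene length and library total. The annotation release, the strand setting and the treatment of shared reads are not given in the sources used here.

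Counts were filtered with filterByExpr, normalized with TMM factors and tested with edgeR 4.0.16 (R 4.3.3), quasi-likelihood, two-sided, on the genotype alone, with Benjamini-Hochberg adjustment over 14228 genes. SE was taken as the ratio of the log2 fold change to √F. CPM uses TMM-scaled library sizes. A count of 0 allows up to 3 counts, and such limits cover counting error only. Positions and 3′UTRs came from GENCODE M21 on GRCm38, and 93 identifiers had no match. Seeds were matched on the mRNA strand.

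The members, lists and tests were chosen with earlier results of these data known. Named genes were every member and its paralogs, the called genes of each list or else its 3 largest absolute log2 fold changes, called neighbours and both neighbours of members beyond a log2 fold change of 1, and for those members the 3 genes of highest Pearson r. Outside this rule, Pcbp2 was named for its lack of overlap, and Tubb3, Syt1 and Des for their unadjusted p. Further list and marker genes were named as examples or for their counts. The muscle list (10 genes) held 2 tested genes, the immune list (8) 2, the endothelial list (4) 1 and the carcinoma list (7) 5, and none of them passed. Alternatives were DESeq2 1.42.0, limma 3.58.1 on counts and on log2(TPM + 1) or log2(TPM + 0.1), other scaling and filters, a GC correction, a replicate block and each library left out. Simulated counts were used to test edgeR, alone, with the replicate block and with the GC correction. DESeq2, limma-voom with sample weights and limma on log2 scaled counts were tested in the same way. The other alternatives were not, and the simulated counts held no GC dependence and no library set apart.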

Additional observations from a re-analysis of the deposited data

Results flagged for a closer look

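Among 54 groups of 4 libraries examined, 2 for each of 27 genes, 6 held a library whose distance to the nearest other library, as a share of the range of log2 CPM, was over the critical value of Dixon's test. For independent genes not picked on their values, chance gives about 1 in 20 such groups. The list genes examined were picked for large log2 fold changes in these same libraries, and genes share a displaced library. That rate is therefore no baseline for the count here. All 6 were wild-type groups. Celf5 was lowest in wild-type replicate 3 (share 0.870), at 4.64 CPM where the other 3 stood at 7.51 to 8.08 CPM. Wild-type replicate 4 was lowest for the SR protein kinases Srpk2 (0.937), at 30.3 CPM against 197 to 224 CPM, and Clk4 (0.851), at 8.85 CPM against 46.8 to 62.7 CPM. The same library was highest for the spliceosome genes Sf3b5 (0.832), at 179 CPM against 38.0 to 49.3 CPM, and Snrpc (0.929), at 229 CPM against 68.0 to 74.2 CPM. Hnrnpd was highest in wild-type replicate 2 (0.866), at 315 CPM against 138 to 154 CPM.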

How the results depend on the processing

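The log2 fold change of Celf2 kept its direction under all 20 alternatives, which is a description, since Celf2 was chosen on this contrast. It was 2.97 with the replicate block and 2.76 to 3.21 with 1 library left out. The adjusted p of Celf2 is likewise a description and no test, since every alternative refits libraries in which Celf2 was chosen. It was under 0.05 in 15 of the 20 alternatives. With the replicate block, or with any single ΔAgo2 library left out, it was not. Of the other members, Celf4, Mbnl1, Mbnl2 and Rbfox2 changed sign under 1, 4, 4 and 5 alternatives. The replicate numbers were not shown to pair the libraries, since deviations of same-numbered libraries correlated at -0.138, -0.049, 0.384 and 0.028.

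Over all genes, 42 were called, against 399 with DESeq2, 257 with limma-voom and sample weights, 143 with no filter on low counts, 6 with at least 1 CPM in 4 libraries, 18 with the replicate block, 69 with the replicate block and GC correction, 71 with the GC correction, 15 on log2(TPM + 1) and 16 on it without a filter. With 1 library left out, 1 to 113 genes were called. Among the 105 list genes the count was 0, against 1 with limma-voom (Srpk2). It was 2 of 124 list genes with DESeq2 and 2 of 124 with no filter, in both cases Msi1 and App, which are not among the 105. With 1 library left out it was 0 to 1 (Msi1 without wild-type replicate 2 and Srpk2 without wild-type replicate 4). Among 18 neighbour genes, Gpc4 was called. The filter of at least 1 CPM in 4 libraries kept 14 of the 18 and removed Gpc4, so that its count of 0 is no test of that gene. The count was also 0 with the replicate block and 0 on unfiltered log2(TPM + 1). It was 0 to 1 with 1 library left out (0 without ΔAgo2 replicate 1). The causes were not tested.

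Depth limits the genes with few counts, and 4 libraries a group, of which wild-type replicate 4 stands apart, limit every difference between genotypes.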
